A study of Homo sapiens with 9 samples.

Results

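The genes examined were the 10 that encode the core of the 2 mTOR complexes and their best known regulators: MTOR, RPTOR, RICTOR, MLST8, AKT1S1, DEPTOR, TSC1, TSC2, RHEB and EIF4EBP1. They were taken by name from a table of 59453 gene names, and all 10 were found and passed the expression filter. The cells were MDA-MB-231, an established human triple-negative breast cancer (TNBC) line, sequenced as RNA in 3 groups of 3 libraries: untreated cells, cells treated with the copper chelator TEPA for 8 h, and cells treated with TEPA for 24 h. All libraries came from this single cell line, grown in DMEM with fetal bovine serum. The sample labels give a TEPA concentration of 8 mM, whereas the methods for RNA sequencing state a lower one. Both time points are compared with the same untreated libraries, whose time of harvest is not stated, so time in culture and time in TEPA cannot be told apart. The labels do not say whether replicates were separate cultures, so p-values measure only the spread between these libraries.

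mTOR is a protein kinase that works in 2 assemblies. mTOR complex 1, built around RPTOR (raptor), senses growth factors, amino acids and energy and drives protein synthesis, while mTOR complex 2, built around RICTOR, phosphorylates AKT and related kinases. Both contain MLST8 and can be held back by DEPTOR, and AKT1S1 (PRAS40) restrains complex 1. TSC1 and TSC2 form a brake: TSC2 switches off the small GTPase RHEB, which in its active form turns on complex 1 at the lysosome. EIF4EBP1 is a main substrate of complex 1 and, when not phosphorylated, blocks the cap-binding factor eIF4E. These activities are set largely by phosphorylation and location, which RNA counts do not measure.

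Libraries held 34633755 to 49342659 counts, and 16556 genes were tested. Markers of the line were checked in all 9 libraries. VIM, CD44 and KRT18 were each at 246 CPM (counts per 1000000 counts of TMM-scaled library size) or more, ESR1 had at most 9 counts, PGR had 0 counts, which allows up to 3 counts by counting error alone, and EPCAM was at most 1.86 CPM. ERBB2 was at 51.9 to 87.1 CPM, CDH1 at 0.25 to 3.89 CPM, PTPRC had at most 5 counts, and PECAM1 ranged from 0.85 to 8.98 CPM. CPM is a share of all RNA counted, so a change in the RNA content of a cell cannot be seen.

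In untreated cells the members covered a wide range of levels. Per kilobase of annotated exon, EIF4EBP1 was highest at 98.8 ± 3.76 CPM per kb, followed by RHEB at 45.1 ± 0.0252 and AKT1S1 at 19.2 ± 0.462 (SD, n = 3). MLST8 (15.2 ± 0.461) and RPTOR (14.7 ± 1.1) overlapped between libraries and could not be ordered on this scale. MTOR came next at 8.215 ± 0.154 CPM per kb, then RICTOR at 4.7 ± 0.089, TSC2 at 4 ± 0.0289 and TSC1 at 3.15 ± 0.0412. DEPTOR was close to the limit of detection, at 0.27 ± 0.0574 CPM per kb and 26 to 33 counts per untreated library. The order depended in part on the length used. Per kilobase of the canonical transcript, MLST8 (38.3 to 40.5 CPM per kb) was above RPTOR (20.3 to 23.4) with no overlap. On that scale TSC2 (12.8 ± 0.0924) overlapped with MTOR (12.6 ± 0.236), since the annotated exons of TSC2 add up to 20.53 kb but its canonical transcript to only 6.42 kb.

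After 8 h of TEPA, 5 of the 10 members were higher and 1 was lower than in untreated cells by edgeR's quasi-likelihood model at a Benjamini-Hochberg adjusted p under 0.05. MTOR itself, its complex 1 partner RPTOR, the complex 1 inhibitor AKT1S1 and both brake genes, TSC1 and TSC2, rose by 9.64% to 21.7%, and RHEB fell by 11.4%. Of all 16556 genes, 49.6% were called at 8 h (25.2% higher and 24.5% lower), so 6 called members of 10 is near the background. The median log2 fold change of the members was 0.11, against 0.00 over all genes tested, and the median of its size was 0.17 against 0.22. The libraries of the groups did not overlap for 7 members, where this held for 57.8% of all genes. No member (0 of 10) passed a log2 fold change of 0.5, against 17.8% of all genes.

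After 24 h, 2 members, AKT1S1 and EIF4EBP1, were higher, and no member was called lower by edgeR, with the p adjusted (0 genes) or not (0 genes), or by DESeq2 (0 genes). Of all genes, 52.5% were called at 24 h (25.7% higher and 26.8% lower), so 2 of 10 is below the background. The libraries did not overlap for 4 members, AKT1S1, EIF4EBP1, TSC1 and RHEB, against 57.2% of all genes. The median size of the members' log2 fold changes was 0.03, against 0.24 over all genes tested. AKT1S1 rose by 52.2% and was the only member beyond a log2 fold change of 0.5, which 18.7% of all genes tested passed. Between 8 h and 24 h, 2 members rose and 4 fell, where 54.8% of all genes were called (26.0% higher and 28.8% lower). The libraries of the 2 times did not overlap for 8 members, against 62.0% of all genes. The 3 comparisons share libraries in pairs and are not independent of each other.

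**Figure D1:**
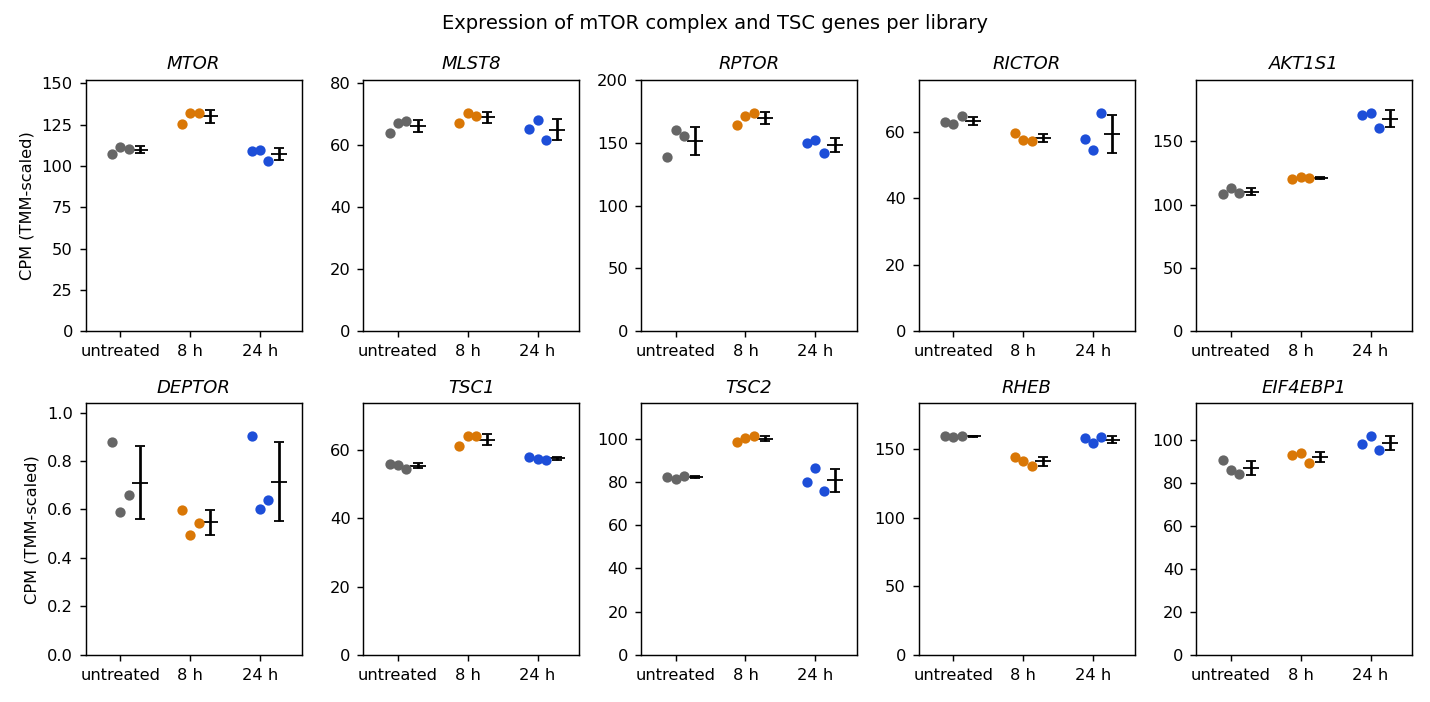
CPM of each of the 10 genes (vertical axis, from 0, with its own range per gene) in the 3 untreated, 3 TEPA 8 h and 3 TEPA 24 h libraries. Points are libraries, and the bar beside them is the mean ± SD. MTOR, TSC1 and TSC2 stand highest at 8 h, RHEB stands lowest at 8 h, and AKT1S1 is highest at 24 h, at 160.1 to 172.6 CPM.

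The promoters of MTOR, RPTOR, TSC1, TSC2 and RHEB are shown because these members were called at 8 h, RHEB as lower and the others as higher. RefSeq (GRCh38.p14) gave the 250 bases before its own gene start for 6 members, MTOR, RPTOR, RICTOR, TSC1, TSC2 and RHEB. MLST8, AKT1S1, DEPTOR and EIF4EBP1 were not matched. The windows, each written 5′ to 3′ on the gene's strand, were chr1:11262552-11262801 (minus) for MTOR, chr17:80544588-80544837 (plus) for RPTOR, chr9:132944617-132944866 (minus) for TSC1, chr16:2047735-2047984 (plus) for TSC2 and chr7:151519896-151520145 (minus) for RHEB. GENCODE, the source of the gene positions given here, places some starts elsewhere. By its gene spans the TSC1 window lies wholly inside the gene, 2008 bases from the first base, and 225 of the 250 bases of the RHEB window lie inside RHEB. Capitals mark matches on either strand to the E-box CACGTG, the C/EBP-ATF motif TGATGNAA and the ETS motif CCGGAAG.
MTOR: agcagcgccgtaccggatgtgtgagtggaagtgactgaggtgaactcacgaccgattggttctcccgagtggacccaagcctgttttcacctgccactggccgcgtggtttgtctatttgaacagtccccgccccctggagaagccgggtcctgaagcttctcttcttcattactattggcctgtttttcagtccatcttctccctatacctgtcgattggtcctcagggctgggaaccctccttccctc
RPTOR: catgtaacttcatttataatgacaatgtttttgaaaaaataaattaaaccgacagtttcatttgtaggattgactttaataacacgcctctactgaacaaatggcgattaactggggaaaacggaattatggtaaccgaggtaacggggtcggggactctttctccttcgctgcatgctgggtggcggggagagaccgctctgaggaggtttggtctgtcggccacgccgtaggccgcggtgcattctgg
TSC1: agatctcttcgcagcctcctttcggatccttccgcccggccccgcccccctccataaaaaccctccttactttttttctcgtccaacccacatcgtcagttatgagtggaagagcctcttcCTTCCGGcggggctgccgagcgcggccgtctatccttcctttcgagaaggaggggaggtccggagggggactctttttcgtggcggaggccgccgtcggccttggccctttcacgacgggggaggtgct
TSC2: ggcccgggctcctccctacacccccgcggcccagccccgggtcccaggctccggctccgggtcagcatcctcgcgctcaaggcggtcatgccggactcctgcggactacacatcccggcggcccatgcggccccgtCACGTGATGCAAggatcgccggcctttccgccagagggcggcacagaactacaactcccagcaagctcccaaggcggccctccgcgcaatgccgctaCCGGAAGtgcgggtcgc
RHEB: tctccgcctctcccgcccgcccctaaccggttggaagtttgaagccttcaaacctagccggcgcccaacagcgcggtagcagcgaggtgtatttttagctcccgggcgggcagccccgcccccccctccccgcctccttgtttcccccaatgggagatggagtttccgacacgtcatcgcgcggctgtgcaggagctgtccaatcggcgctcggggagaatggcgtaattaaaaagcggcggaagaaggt
The TSC2 window held an E-box that overlaps a C/EBP-ATF match, and an ETS match near its end. The E-box occurred in 6.49% and the C/EBP-ATF motif in 3.19% of 27305 RefSeq promoter windows of the same length, and of the 6 matched members TSC2 alone (1 of 6) held either. The ETS motif was found in TSC1 and TSC2, and in 8.82% of all windows. None of these 3 motifs was in the windows of MTOR, RPTOR, RICTOR or RHEB. The SP1-type motif GGGCGG, not capitalised, was in 5 of the 6 windows (MTOR, RICTOR, TSC1, TSC2 and RHEB) and in 42.3% of all windows. It was also in 49 of 65 windows of the other pathway genes, so it was not particular to the members. G and C made up 62.0% to 76.0% of the windows of RICTOR, TSC1, TSC2 and RHEB and 55.6% of that of MTOR. The median over all windows was 58%. All motifs here are matches of letters, and binding was not measured.

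MTOR, the shared kinase, lies on chromosome 1 of hg38 from 11106535 to 11262556 on the minus strand. It was at 107.5, 111.5 and 110.6 CPM in the untreated libraries, 125.6, 132.3 and 132.4 CPM at 8 h, and 109.4, 109.5 and 103.3 CPM at 24 h. The 8 h libraries were all above the untreated libraries, whereas those at 24 h overlapped them. The 8 h difference was 0.24 on the log2 scale (adjusted p = 9e-05, standard error 0.039). The 24 h difference was -0.03, with a 95% interval from -0.11 to 0.04 (adjusted p = 0.51). MTOR fell by 0.28 on the log2 scale between 8 h and 24 h (adjusted p = 2e-05).

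MLST8, the small beta-propeller subunit that both complexes share, did not pass the test at either time. Its libraries were at 63.98, 67.11 and 67.73 CPM untreated, 67.07, 70.61 and 69.52 CPM with TEPA for 8 h, and 65.26, 68.32 and 61.81 CPM with TEPA for 24 h. All groups overlapped. The 95% interval of its log2 fold change ran from -0.03 to 0.15 at 8 h and from -0.11 to 0.06 at 24 h. From 8 h to 24 h it was -0.08 (adjusted p = 0.13), and MLST8 was called lower there without TEPA 24 h replicate 2 (-0.12, adjusted p = 0.047).

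RPTOR, the scaffold that brings substrates to complex 1, lies on chromosome 17 from 80544819 to 80966371. It was at 138.5, 159.9 and 155.6 CPM in untreated libraries, at 164.2, 170.9 and 174 CPM at 8 h, and at 150.1, 152.1 and 142 CPM at 24 h. The untreated libraries varied more for RPTOR than for MTOR, but every 8 h library was above them. RPTOR rose by 0.16 on the log2 scale at 8 h (adjusted p = 0.012, standard error 0.049). That call was lost without TEPA 8 h replicate 3, with a log2 fold change of 0.10 and an adjusted p of 0.063. No difference was called at 24 h (-0.03, adjusted p = 0.62), and RPTOR fell by 0.20 between 8 h and 24 h (adjusted p = 0.0032).

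RICTOR, the defining subunit of complex 2, was at 62.86, 62.32 and 64.61 CPM in untreated libraries and 59.49, 57.46 and 57.3 CPM at 8 h. All 8 h libraries were below the untreated ones, but with a log2 fold change of -0.12 (standard error 0.056, adjusted p = 0.081) the difference was not called. It was called in 4 of 16 alternative fits, among them those without TEPA 24 h replicate 2 or without TEPA 24 h replicate 3, with adjusted p down to 0.021. At 24 h RICTOR was at 57.81, 54.63 and 65.79 CPM. TEPA 24 h replicate 3 stood above all untreated libraries and the other two below them. Without TEPA 24 h replicate 3, RICTOR was called lower at 24 h. Its log2 fold change was then -0.17 (adjusted p = 0.0066), against -0.09 (adjusted p = 0.18) with all libraries.

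AKT1S1, also known as PRAS40, binds RPTOR and is phosphorylated by AKT, and it showed the largest change of the members. The gene lies on chromosome 19 from 49869033 to 49878459 on the minus strand. It was at 108, 113.1 and 109.4 CPM in untreated libraries, 119.9, 121.4 and 121.2 CPM at 8 h, and 170.5, 172.6 and 160.1 CPM at 24 h. The groups did not overlap at any pair of times, with the untreated libraries lowest and the 24 h libraries highest. AKT1S1 rose by 0.13 on the log2 scale at 8 h (adjusted p = 0.0095, standard error 0.039) and by 0.61 at 24 h (adjusted p = 4.4e-09, standard error 0.038). From 8 h to 24 h it rose by 0.47 (adjusted p = 5.8e-08). TBC1D17 overlaps AKT1S1 on the other strand, which counting by strand keeps apart.

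DEPTOR, the inhibitor that both complexes can bind, had 33, 27 and 26 counts without TEPA, 24, 19 and 20 counts with TEPA for 8 h, and 46, 26 and 23 counts with TEPA for 24 h. The groups overlapped except that the 8 h libraries were all below the 24 h libraries, at 0.497 to 0.600 CPM against 0.602 to 0.902 CPM. No comparison was called, and at this depth the 95% interval of the log2 fold change ran from -0.90 to 0.17 at 8 h and from -0.46 to 0.54 at 24 h.

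TSC1 and TSC2 encode the partners of the TSC complex, of which TSC2 carries the GTPase-activating domain and TSC1 stabilizes it. TSC2, on chromosome 16 from 2047967 to 2089491, was at 82.41, 81.52 and 82.64 CPM in untreated libraries, 98.52, 100.5 and 101.1 CPM at 8 h, and 79.72, 86.48 and 75.91 CPM at 24 h. This was the largest rise among the 10 members at 8 h, and the 24 h libraries lay on both sides of the untreated ones. The log2 fold change of TSC2 was 0.28 at 8 h (standard error 0.045, adjusted p = 7.8e-05) and -0.03 at 24 h (95% interval from -0.11 to 0.06, adjusted p = 0.66). Among the matched members its promoter window was the one that held the E-box, and any link of that motif to expression was not tested. TSC1, on chromosome 9 from 132891348 to 132946874, was at 56.04, 55.6 and 54.62 CPM in untreated libraries, 61.12, 64.08 and 64.05 CPM at 8 h, and 58, 57.47 and 57.22 CPM at 24 h. All 8 h libraries were above the others, and TSC1 rose by 0.19 on the log2 scale (adjusted p = 0.00097). At 24 h all TSC1 libraries were still above the untreated ones, but by a log2 fold change of only 0.06 (adjusted p = 0.26). Between 8 h and 24 h TSC2 fell by 0.31 and TSC1 by 0.13 on the log2 scale (adjusted p = 2.5e-05 and 0.0095), and the call for TSC1 was lost in 3 of 16 alternative fits, among them those without TEPA 8 h replicate 2 (-0.12) and without TEPA 8 h replicate 3 (-0.12).

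RHEB, the GTPase that activates complex 1, moved the other way. It lies on chromosome 7 from 151466012 to 151520120 and was at 159.5, 159.4 and 159.6 CPM in untreated libraries, 144.2, 141.8 and 137.8 CPM at 8 h, and 158.3, 154.4 and 158.9 CPM at 24 h. Every 8 h library was below every other library, and the 24 h libraries were just below the untreated ones. The log2 fold change was -0.17 at 8 h (standard error 0.034, adjusted p = 0.00055), and -0.02 at 24 h, with a 95% interval from -0.09 to 0.05 (adjusted p = 0.64). RHEB rose by 0.15 between 8 h and 24 h (adjusted p = 0.0013). The annotation holds 3 pseudogenes of RHEB that can take its reads. RHEBP2 was at 13.9 to 14.2 CPM in untreated cells, 11.7 to 12.8 CPM at 8 h and 13.9 to 14.8 CPM at 24 h, RHEBP1 was at most 1.47 CPM, and RHEBP3 was at 0 CPM in all libraries. RHEBP2 moved in the same direction as RHEB at 8 h, and its part in the RHEB counts was not tested.

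EIF4EBP1, the translational repressor downstream of complex 1, was at 90.64, 86.07 and 84.21 CPM in untreated libraries, 93.19, 93.98 and 89.6 CPM at 8 h, and 98.51, 101.9 and 95.46 CPM at 24 h. The 24 h libraries were above all others, while 8 h and untreated libraries overlapped. EIF4EBP1 rose by 0.18 on the log2 scale at 24 h (adjusted p = 0.0016, standard error 0.041). The 8 h value, 0.09, was not called (adjusted p = 0.1), though leaving out untreated replicate 1 gave a call (0.11, adjusted p = 0.034). The value from 8 h to 24 h, 0.10, missed the threshold (adjusted p = 0.059) and was called in 8 of 16 alternative fits, among them those without untreated replicate 1, untreated replicate 2 or TEPA 24 h replicate 3.

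**Figure D2:**
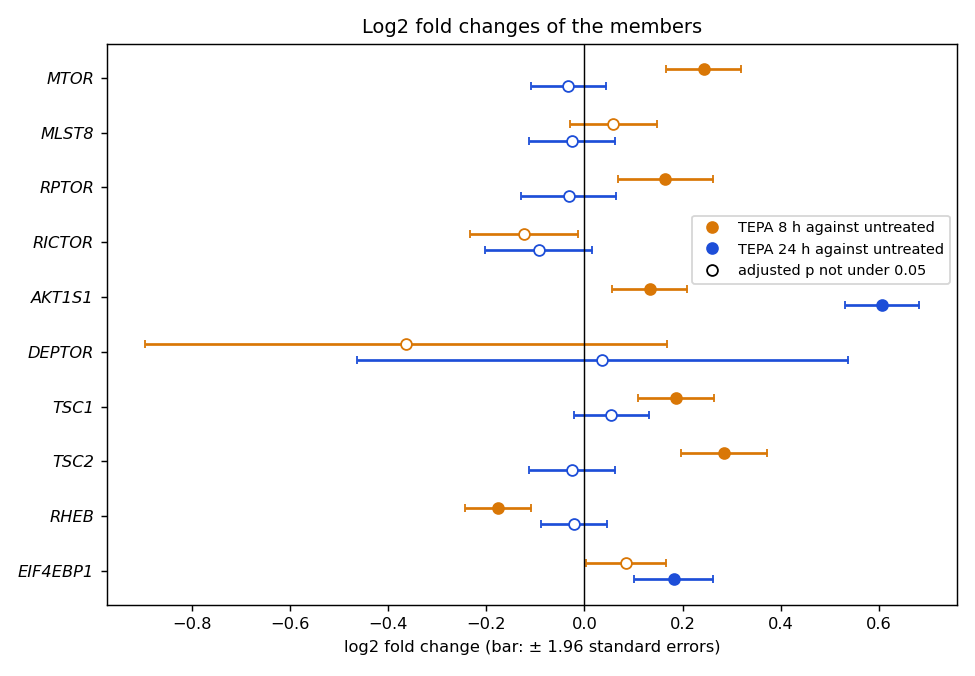
Log2 fold change of each member against untreated cells (horizontal axis) at 8 h (orange) and 24 h (blue), with bars for the 95% interval and open points where the adjusted p was not under 0.05. At 24 h all intervals but those of AKT1S1 and EIF4EBP1 span 0, and the interval of DEPTOR is the widest at both times.

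Across the 9 libraries, log2 CPM of MTOR and TSC2 had a Pearson correlation of 0.97, that of MTOR and RPTOR 0.91, and that of MTOR and RHEB -0.96. These are descriptions, since the 9 points fall into the 3 groups and each pair was measured in the same libraries. Among 11919 other genes with a mean of at least 100 counts, STOML2, GCN1 and GAREM2 were the genes most like MTOR (Pearson correlation 0.995, 0.993 and 0.992 over 9 libraries), and 272 genes were above 0.95. By Spearman correlation none (0) of the 3 was among the 3 highest.

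Around this core, 76 other genes of the mTOR pathway were listed by function, of which 73 were tested. At 8 h, 22 were higher and 19 lower (56.2% called, against 49.6% of all genes), and at 24 h, 16 were higher and 30 lower (63.0%, against 52.5%). The median log2 fold change was 0.02 at 8 h and 0.01 at 24 h. SESN3 had at most 2 counts, EIF4EBP3 at most 5 counts and DDIT4L 0 counts in every library, and these 3 were not tested.

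**Figure D3:**
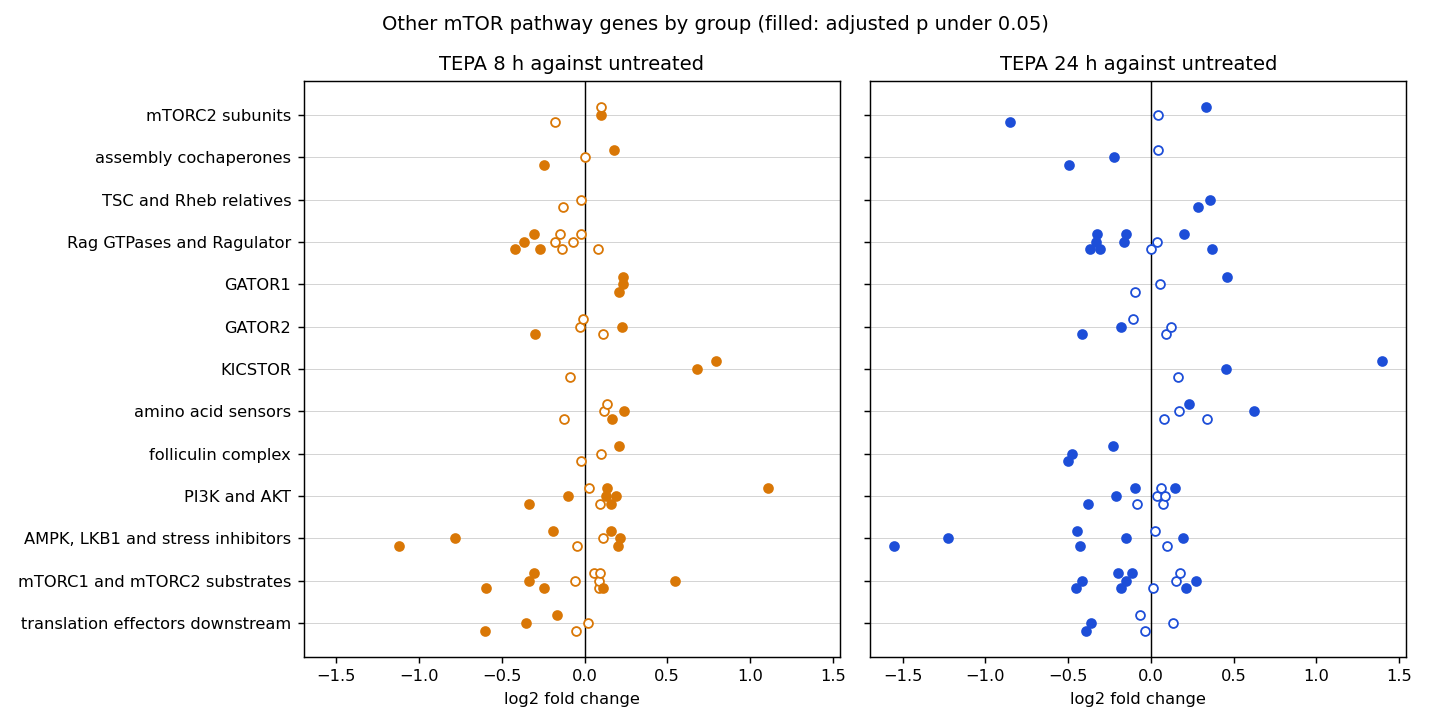
Log2 fold change against untreated cells (horizontal axis) of 70 pathway genes in 13 functional groups (rows) at 8 h (left) and 24 h (right). Filled points had an adjusted p under 0.05. The KICSTOR genes KPTN and ITFG2 stand to the right at 8 h, and PRKAA2 and PRKAB2 of AMPK stand farthest to the left at 24 h.

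The amino acid branch signals through GATOR1 and the Rag GTPases. KICSTOR, which anchors the inhibitor GATOR1 at the lysosome, includes KPTN, ITFG2 and KICS2. KPTN and ITFG2 were higher at 8 h, and KPTN and KICS2 at 24 h. KPTN averaged 6.14 ± 0.225 CPM untreated, 10.7 ± 1.6 CPM with TEPA for 8 h and 16.2 ± 0.601 CPM with TEPA for 24 h (SD, n = 3). It rose by 0.79 and 1.40 on the log2 scale (adjusted p = 7.3e-06 and 8e-09). ITFG2 was at 0.68 on the log2 scale at 8 h and 0.17 at 24 h, where it was not called (adjusted p = 0.14) except without TEPA 24 h replicate 3 (0.26). All 3 GATOR1 genes were higher at 8 h (25.2% of all genes were), but only 1 of the 3 at 24 h (25.7% of all genes were). That gene was DEPDC5 (0.23 at 8 h and 0.46 at 24 h). Its 8 h call was lost in 3 of 16 alternative fits, among them the fits leaving out untreated replicate 3 or TEPA 8 h replicate 2. Among the 5 GATOR2 genes, whose products oppose GATOR1, MIOS was lower at 24 h (-0.42, adjusted p = 8.3e-05).

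The Rag GTPases and the Ragulator scaffold bring complex 1 to the lysosome. The list for them held 10 genes, among them SLC38A9, which is neither a Rag GTPase nor a Ragulator subunit. After 8 h, none (0) of the 10 was higher and 4 were lower. The 0 held also at an unadjusted p under 0.05 and by DESeq2. After 24 h, 2 were higher and 6 lower. The 4 of 10 called at 8 h is below the 49.6% of all genes, and the 8 of 10 at 24 h is above the 52.5%. RRAGA fell from 44.5 ± 2.54 CPM to 33.2 ± 1.32 CPM at 8 h, a log2 fold change of -0.42 (adjusted p = 1.1e-05), and was at 40.1 ± 1.81 CPM at 24 h (-0.15, adjusted p = 0.028). The 24 h call of RRAGA was lost in 4 of 16 alternative fits, among them those without untreated replicate 1, TEPA 24 h replicate 1 or TEPA 24 h replicate 3. All 3 genes of the folliculin complex, which acts on the Rag GTPases, were lower at 24 h (26.8% of all genes were). At 8 h only 1 of the 3 was called, as higher. FLCN shares 11.9% of its exon length with another gene on the same strand. FLCN rose by 0.21 on the log2 scale at 8 h (adjusted p = 0.0025) and was lower than untreated at 24 h (-0.50, adjusted p = 6.3e-07). Of the 5 amino acid sensors tested, 2 were higher at each time (25.2% and 25.7% of all genes were), and 1 at each time by DESeq2. CASTOR2, of the arginine sensor family, was higher at 24 h (0.62, adjusted p = 8.1e-07), and its 8 h value of 0.17 (adjusted p = 0.045) was not called in 12 of 16 alternative fits, among them all that leave out 1 library but 2 (untreated replicate 2 and TEPA 8 h replicate 1).

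Energy and stress inputs held the lowest log2 fold changes of the listed genes at both times. PRKAA2, a catalytic subunit of the energy sensor AMPK, averaged 16.8 ± 1.27 CPM untreated, 9.76 ± 0.504 CPM with TEPA for 8 h and 5.79 ± 0.973 CPM with TEPA for 24 h (SD, n = 3). The log2 fold changes were -0.78 and -1.55 (adjusted p = 6.4e-06 and 5.4e-09). PRKAA1, the other catalytic subunit gene, averaged 92.1 ± 4.53 CPM untreated and 98.7 ± 6.55 CPM with TEPA for 24 h. It was not called at 8 h or 24 h (0.11 and 0.10, adjusted p = 0.096 and 0.13). Leaving out TEPA 24 h replicate 2 gave a call of PRKAA1 as higher at 24 h. PRKAB2, a regulatory subunit of AMPK, averaged 24.2 ± 0.145 CPM untreated, 21.2 ± 0.214 CPM with TEPA for 8 h and 10.4 ± 0.171 CPM with TEPA for 24 h. Its log2 fold changes were -0.19 and -1.23 (adjusted p = 0.0067 and 1.4e-10). DDIT4 (REDD1), a stress-induced inhibitor that acts through the TSC complex, was lower at both times (-1.12 and -0.45, adjusted p = 1.5e-06 and 0.0039). Its untreated libraries were spread from 118.5 to 191.9 CPM and its 8 h libraries from 64.9 to 70.6 CPM. Without untreated replicate 1, the highest of these, the 24 h log2 fold change was -0.22 (adjusted p = 0.0015). Of 8 genes tested in this group, 3 were higher and 3 lower at 8 h, and 1 was higher and 5 lower at 24 h, which is 75.0% called at each time against 49.6% and 52.5% of all genes.

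Among 11 substrates of the complexes tested, 2 were higher and 4 lower at 8 h, and 2 were higher and 6 lower at 24 h. The shares called, 54.5% and 72.7%, stand against 49.6% and 52.5% of all genes. SGK1, a kinase activated by complex 2, was higher at 8 h and lower at 24 h (0.55 and -0.45, adjusted p = 3.4e-05 and 2.6e-04). LPIN1, a lipid phosphatase that complex 1 phosphorylates, was lower at both times (-0.60 and -0.20). Of 5 translation effectors further downstream, 3 were lower at 8 h and 2 at 24 h (24.5% and 26.8% of all genes were). PDCD4, a repressor of translation, fell by 0.60 on the log2 scale at 8 h (adjusted p = 1.8e-05). Its 24 h value, 0.14, was not called (adjusted p = 0.16), though leaving out untreated replicate 1 gave a call (0.24).

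TELO2, which helps assemble kinases of this family, was higher at 8 h (0.18, adjusted p = 0.0042) and lower at 24 h (-0.49, adjusted p = 3.2e-07). PRR5, a complex 2 subunit, was lower at 24 h (-0.85, adjusted p = 0.0062) at 24 to 58 counts per library, and 17.8% of its exon length is shared with the read-through gene PRR5-ARHGAP8. RHEBL1, a relative of RHEB, was higher at 24 h by 0.36 on the log2 scale (adjusted p = 0.04), a call lost in 6 of 16 alternative fits, among them those without untreated replicate 3, TEPA 24 h replicate 2 or TEPA 24 h replicate 3. Without untreated replicate 3 its value was 0.23. In the PI3K group of 11 genes, 5 were higher and 3 lower at 8 h (72.7% called, against 49.6% of all genes). PIK3R2, a PI3K regulatory subunit, was higher at 8 h by 1.11 on the log2 scale (adjusted p = 0.019) at only 5 to 22 counts per library. It shares 76.4% of its annotated exon length with another gene on the same strand, and the call was lost with DESeq2 and without untreated replicate 3 or TEPA 8 h replicate 2.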

How the data were processed

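The study performed paired-end RNA-Seq of MDA-MB-231 cells. After quality control with FastQC, the authors mapped reads to hg38 (HISAT2) and ran featureCounts by strand over Ensembl exons, grouped by gene name. They deposited raw counts, not normalized, and all 9 columns were matched to samples by title. KICS2 is listed there under its older name, C12orf66.

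The analysis used edgeR 4.0.16 (R 4.3.3). The filter, filterByExpr at a minimum of 10 counts, left 16556 genes. Libraries were scaled by TMM and all 9 fitted in one quasi-likelihood model with group as the only term. Adjustment was by Benjamini-Hochberg over every tested gene, and a gene was called at an adjusted p under 0.05. Standard errors were derived from the log2 fold change and its F statistic, and 95% intervals are normal intervals from them. With 3 libraries against 3, a permutation of libraries cannot give a p under 0.1. The biological coefficient of variation was 0.0481, and libraries of a group differed by more than counting error, at 2.384 to 21.37 chi-square per degree of freedom, so none was a copy.

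Total counts of 34633755 to 49342659 per library set the counting error behind each value. DESeq2 1.42.0 and other settings were alternatives. Exon lengths and positions are from GENCODE on hg38, not the release used for counting, and levels per length used the union of exons. The procedure was tested on simulated counts. In these, far fewer genes were changed than were called here, and by more than most members changed. That test therefore does not show how the procedure performs on changes as widespread or as small as these. Named pathway genes are those called with a log2 fold change beyond 0.5 at 8 h or 24 h, and otherwise the largest called change of their group. The members and lists were chosen with earlier results of these data known. KICS2, AKT1, RPS6KB1 and PRKAA1 were chosen after their values were seen. Some genes of the lists are counted but not reported here.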

Additional observations from a re-analysis of the deposited data

Results flagged for a closer look

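For 6 of the 10 members and all 17 named pathway genes, the log2 fold change at 24 h differed from that at 8 h by the test of the difference itself (adjusted p of 1e-09 to 0.019 in edgeR). The pathway genes were named for large called changes in the same libraries, so their count is no measure of the pathway. Over the whole list 46 of 73 (63.0%) differed, against 54.8% of all genes tested. Both times are set against the same untreated libraries. Among the members, the difference (24 h minus 8 h) was -0.28 for MTOR, -0.20 for RPTOR, -0.13 for TSC1 and -0.31 for TSC2, so that these were lower at 24 h than at 8 h. It was 0.47 for AKT1S1 and 0.15 for RHEB, which were higher at 24 h.

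In the amino acid branch, the difference was 0.60 for KPTN, 0.45 for CASTOR2, 0.27 for RRAGA and 0.23 for DEPDC5, against -0.51 for ITFG2, -0.53 for MIOS and -0.71 for FLCN. Among energy and stress inputs it was -0.76 for PRKAA2, -1.04 for PRKAB2 and 0.67 for DDIT4. Among substrates and effectors it was -1.003 for SGK1, 0.40 for LPIN1 and 0.74 for PDCD4. It was -0.95 for PRR5, -0.67 for TELO2, 0.48 for RHEBL1 and -1.19 for PIK3R2. FLCN, SGK1 and TELO2 were called higher at 8 h and lower at 24 h. Without TEPA 24 h replicate 2 the difference for PIK3R2, at 5 to 22 counts per library, was not called, and that for DEPDC5 was not called without TEPA 8 h replicate 1, TEPA 8 h replicate 3 or TEPA 24 h replicate 1.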

How the results depend on the processing

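Over 16 alternative fits, 7 of 10 members stayed on their side of the threshold in every fit, with the same direction where called, at 8 h, 9 of 10 at 24 h and 7 of 10 between the times. No called value of a listed gene changed sign, but uncalled values near 0 did. With 1 library left out, the 24 h value ran from -0.09 to 0.01 for RPTOR, -0.06 to 0.01 for MLST8, -0.08 to 0.02 for TSC2 and -0.19 to 0.21 for DEPTOR, and the 24 h minus 8 h value of RICTOR from -0.05 to 0.09. The 24 h value of RHEB reached 0.01 with upper-quartile normalization. A fold limit of 0.5 on the log2 scale moved most counts. At 8 h it left 0 of 5 higher and 0 of 1 lower members, 5 of 22 higher and 4 of 19 lower pathway genes, and 1673 of 4165 higher and 1270 of 4051 lower genes over the whole table. At 24 h it left 1 of 2 higher members, 2 of 16 higher and 4 of 30 lower pathway genes, and 1695 of 4253 higher and 1400 of 4435 lower genes. Between the times it left 0 of 2 higher and 0 of 4 lower members, 6 of 22 higher and 9 of 24 lower pathway genes, and 1716 of 4309 higher and 1789 of 4770 lower genes. With no filter on low counts and with only the 2 groups compared, 2 members were lower at 8 h, RICTOR beside RHEB. The cause was not tested.

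With each library left out in turn, 4 to 6 members were higher and 1 to 2 lower at 8 h, 0 to 1 lower at 24 h, 2 to 3 higher and 3 to 5 lower between the times, and 14 to 21 pathway genes higher at 8 h, where the 14 came without TEPA 8 h replicate 2. The replicate number as a block gave the same number of called members in every comparison (5 higher and 1 lower at 8 h). Same-numbered libraries did not deviate together (correlation of deviations from -0.08 to 0.04 over 9 pairs), so the numbers were not taken as pairs. Levels per kilobase rest on the transcript length chosen, an alternative added after the data were seen. DEPTOR and PIK3R2 are limited by depth.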

Other observations

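AKT1 and RPS6KB1, chosen after their values were seen, changed at 24 h by less than 1.5-fold. They do not stand for the kinases of the pathway, since PRKAA2 was at -1.55 on the log2 scale at 24 h. AKT1, an AKT isoform, averaged 254 ± 1.57 CPM untreated, 280 ± 8.83 CPM with TEPA for 8 h and 238 ± 8.16 CPM with TEPA for 24 h (SD, n = 3). It rose by 0.14 on the log2 scale at 8 h (adjusted p = 0.0063 in edgeR) and was at -0.09 after 24 h (adjusted p = 0.044 in edgeR). The 24 h call of AKT1 was lost in 14 of 16 alternative fits, among them all that leave out 1 library but those without TEPA 8 h replicate 1 and without TEPA 24 h replicate 2.

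RPS6KB1, the S6 kinase that complex 1 activates, was at 48.81, 46.12 and 47.93 CPM in untreated libraries and 56.92, 55.27 and 60.84 CPM at 24 h, with no overlap. The 8 h value of RPS6KB1 was 0.06 on the log2 scale (adjusted p = 0.38), and at 24 h it rose by 0.28 (adjusted p = 0.0002).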
